A study of Homo sapiens with 28 samples.

Results

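The genes described here are 47 interferon-stimulated genes, genes whose transcription rises in most cells exposed to interferon. They were chosen by name for what they are known to do and not by a rule on measured values, although earlier results of these data were known, and each of the 47 symbols was found among the 26443 genes with values. RNA-seq was performed in LNCaP, an androgen-dependent human line established from prostate cancer in a lymph node. The study asked what the loss of HOXB13, a homeobox transcription factor of the prostate, does to gene expression, and how far that depends on p300 (EP300) and CBP (CREBBP), a pair of related histone acetyltransferases that act as transcriptional coactivators. Cells carried a control vector (shCtrl) or a short hairpin RNA against HOXB13 (shHOXB13), both in the lentiviral vector pGIPZ and kept in all further groups. In the knockdown series, each of these was left alone or also received shp300, shCBP or both (shp300/CBP), which gave 8 groups of 2 libraries. In the inhibitor series, shCtrl and shHOXB13 cells were treated for 48 h with the vehicle DMSO or with 250 nM CCS1477, an inhibitor of the p300/CBP bromodomain, which gave 4 groups of 3 libraries. Each target was depleted with 1 hairpin, shp300 and shCBP sit in a different vector (pLKO.1) from shHOXB13, and the labels name no second control vector for the cells left alone, so the effect of a target and that of its hairpin or vector cannot be told apart. The study describes the replicates as biological. In these bulk libraries, fewer cells of one kind and less RNA per cell cannot be told apart.

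Interferons are secreted proteins that cells release when they sense viral nucleic acid. Type I and type III interferons bind different receptors, but both activate the kinases JAK1 and TYK2, which phosphorylate STAT proteins such as STAT2. With IRF9 these form the complex ISGF3, which binds interferon-stimulated response elements (ISRE) in promoters. Type II interferon acts mainly through other elements, called GAS. The products of the target genes block viral entry, translation, replication or budding, or modify host proteins, and several of the genes belong to small families that lie side by side in the genome.

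Libraries held 7458934 to 16338528 mapped reads, of which 52.7 to 74.3% fell in listed genes in the knockdown series and 78.4 to 84.0% in the inhibitor series. HOXB13 was at 87.6 and 85.4 FPKM (reads scaled to gene length and to library size) in shCtrl cells and at 11.2 and 11.4 FPKM in shHOXB13 cells. EP300 was lower with shp300 in both shCtrl (values in parentheses are the log2 change, its standard error and the adjusted p: -1.24, SE 0.15, adjusted p = 0.00175) and shHOXB13 cells (-0.79, SE 0.15, adjusted p = 0.0112), and was already lower in shHOXB13 than in shCtrl cells (-0.92, SE 0.15, adjusted p = 0.000671). CREBBP was lower with shCBP in shCtrl cells (-0.95, SE 0.16, adjusted p = 0.00406), whereas in shHOXB13 cells neither CREBBP with shCBP (-0.64, SE 0.16, adjusted p = 0.0639) nor, with shp300/CBP, EP300 (-0.41, SE 0.15, adjusted p = 0.0729) or CREBBP (-0.27, SE 0.16, adjusted p = 0.228) passed the test, while HOXB13 was lower with shp300/CBP there (-0.80, SE 0.17, adjusted p = 0.0051). HOXB13 itself was also lower with shCBP in shCtrl cells (-0.87, SE 0.17, adjusted p = 0.00859). In the inhibitor series mean HOXB13 under DMSO was 142 FPKM in shCtrl and 30.4 FPKM in shHOXB13 cells. With CCS1477 mean EP300 went from 18.1 to 21.7 FPKM in shCtrl and from 9.905 to 16.6 FPKM in shHOXB13 cells. Mean CREBBP went from 9.07 to 12.1 FPKM and from 4.555 to 10.3 FPKM. All 10 luminal prostate markers reached 1 FPKM and none of 7 leukocyte markers did, their summed level being 0.224 to 1.70 FPKM in the knockdown series and 0.253 to 1.13 FPKM in the inhibitor series.

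The proximal promoters of the genes are shown because the ISRE is the feature that the group is best known to share. RefSeq promoters (build GRCh38.p14, 250 bases before to 50 bases after the start of transcription) were matched for 40 of the 47 genes. The ISRE core was searched as GAAANNGAAA on both strands and was found in 27 of the 40 (67.5%), against 1195 of all 27305 promoters (4.38%). The GAS core TTCNNNGAA, which reads the same on both strands, was found in 13 of the 40 (32.5%) and in 9.38% of all promoters. In the following 7 promoters, each written 5′ to 3′ on the strand of the gene, capitals mark the ISRE matches. IFIT1 (plus strand, chr10:89392373-89392672), ISG15 (plus strand, chr1:1013247-1013546), IFI6 (minus strand, chr1:27672143-27672442), IFITM1 (plus strand, chr11:313790-314089) and BST2 (minus strand, chr19:17405581-17405880) hold 2 or 3 matches each, those in ISG15 and BST2 overlapping one another, whereas OAS1 (plus strand, chr12:112906712-112907011) and HERC6 (plus strand, chr4:88378602-88378901) hold none. The search asked for 2 bases between the GAAA repeats, so gaaacgaaa in OAS1, with a shorter gap, was not counted. These 7 were chosen after their values had been seen, to show genes with and without a match that rose in the same comparison.
IFIT1: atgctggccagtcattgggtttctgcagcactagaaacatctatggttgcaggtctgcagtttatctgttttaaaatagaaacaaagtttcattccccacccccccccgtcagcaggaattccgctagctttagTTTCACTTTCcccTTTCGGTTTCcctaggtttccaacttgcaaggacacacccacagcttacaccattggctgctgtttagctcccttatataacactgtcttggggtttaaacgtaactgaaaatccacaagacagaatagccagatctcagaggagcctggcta
ISG15: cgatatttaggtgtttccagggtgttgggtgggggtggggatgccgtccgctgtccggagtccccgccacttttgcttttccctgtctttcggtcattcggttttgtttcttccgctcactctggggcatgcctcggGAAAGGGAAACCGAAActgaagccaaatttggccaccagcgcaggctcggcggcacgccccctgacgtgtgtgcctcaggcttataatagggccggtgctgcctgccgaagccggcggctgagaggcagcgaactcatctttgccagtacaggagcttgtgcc
IFI6: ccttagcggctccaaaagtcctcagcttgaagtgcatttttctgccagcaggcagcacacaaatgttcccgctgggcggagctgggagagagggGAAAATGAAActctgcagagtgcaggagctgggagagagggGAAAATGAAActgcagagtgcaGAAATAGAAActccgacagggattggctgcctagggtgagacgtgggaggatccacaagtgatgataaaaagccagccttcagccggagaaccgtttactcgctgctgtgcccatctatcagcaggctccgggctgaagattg
IFITM1: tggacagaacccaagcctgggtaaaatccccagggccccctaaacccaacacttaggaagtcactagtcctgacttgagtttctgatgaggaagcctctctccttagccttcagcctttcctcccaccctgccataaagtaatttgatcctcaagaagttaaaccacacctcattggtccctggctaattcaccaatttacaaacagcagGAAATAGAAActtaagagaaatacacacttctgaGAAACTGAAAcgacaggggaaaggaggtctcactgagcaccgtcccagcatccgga
BST2: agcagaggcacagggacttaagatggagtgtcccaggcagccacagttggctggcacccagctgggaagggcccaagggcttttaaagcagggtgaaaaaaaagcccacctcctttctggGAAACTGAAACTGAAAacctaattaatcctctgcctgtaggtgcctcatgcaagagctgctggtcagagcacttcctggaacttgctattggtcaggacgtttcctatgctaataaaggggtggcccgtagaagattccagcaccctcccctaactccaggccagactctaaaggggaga
OAS1: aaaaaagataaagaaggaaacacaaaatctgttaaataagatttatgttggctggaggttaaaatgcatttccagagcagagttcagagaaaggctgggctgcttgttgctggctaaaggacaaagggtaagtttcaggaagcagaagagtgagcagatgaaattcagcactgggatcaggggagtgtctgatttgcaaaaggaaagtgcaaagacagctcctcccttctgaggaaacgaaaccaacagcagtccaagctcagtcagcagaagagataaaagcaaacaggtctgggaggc
HERC6: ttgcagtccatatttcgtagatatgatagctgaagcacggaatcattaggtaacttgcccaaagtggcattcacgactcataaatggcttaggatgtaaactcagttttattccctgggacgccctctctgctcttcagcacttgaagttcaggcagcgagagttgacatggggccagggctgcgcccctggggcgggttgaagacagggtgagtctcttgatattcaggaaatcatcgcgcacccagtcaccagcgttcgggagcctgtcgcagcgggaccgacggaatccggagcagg

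Across the knockdown series the genes were low in shCtrl cells with no or 1 second hairpin and, for most of them, highest in shHOXB13 cells that also carried shp300. Their summed level was 223 to 263 FPKM in shCtrl cells, 257 to 259 FPKM with shp300 and 250.1 to 260.0 FPKM with shCBP, but 597 to 886 FPKM with shp300/CBP. Without a second hairpin, shHOXB13 cells were at 567 to 666 FPKM, and they reached 747 to 944 FPKM with shCBP, 1430.2 to 1537 FPKM with shp300/CBP and 2136 to 2386 FPKM with shp300. Of the 8 group means, that of shHOXB13+shp300 was the highest for 34 of the 47 genes, and for 28 of these both of its libraries exceeded each of the 14 other libraries, against 7.39% and 2.01% of all genes. The shp300/CBP group had the highest mean for 6 genes in shHOXB13 cells and for 4 in shCtrl cells. ISG15, IFI6, IFITM3 and LGALS3BP made up most of each sum. The 2 libraries of shCtrl+shp300/CBP differed in these genes: the median ratio of #2 to #1 was 1.34 over the 47 genes and 0.989 over all genes tested, and all 29 genes called higher in that group were higher in #2, 7 of them at least 2-fold.

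**Figure D1:**
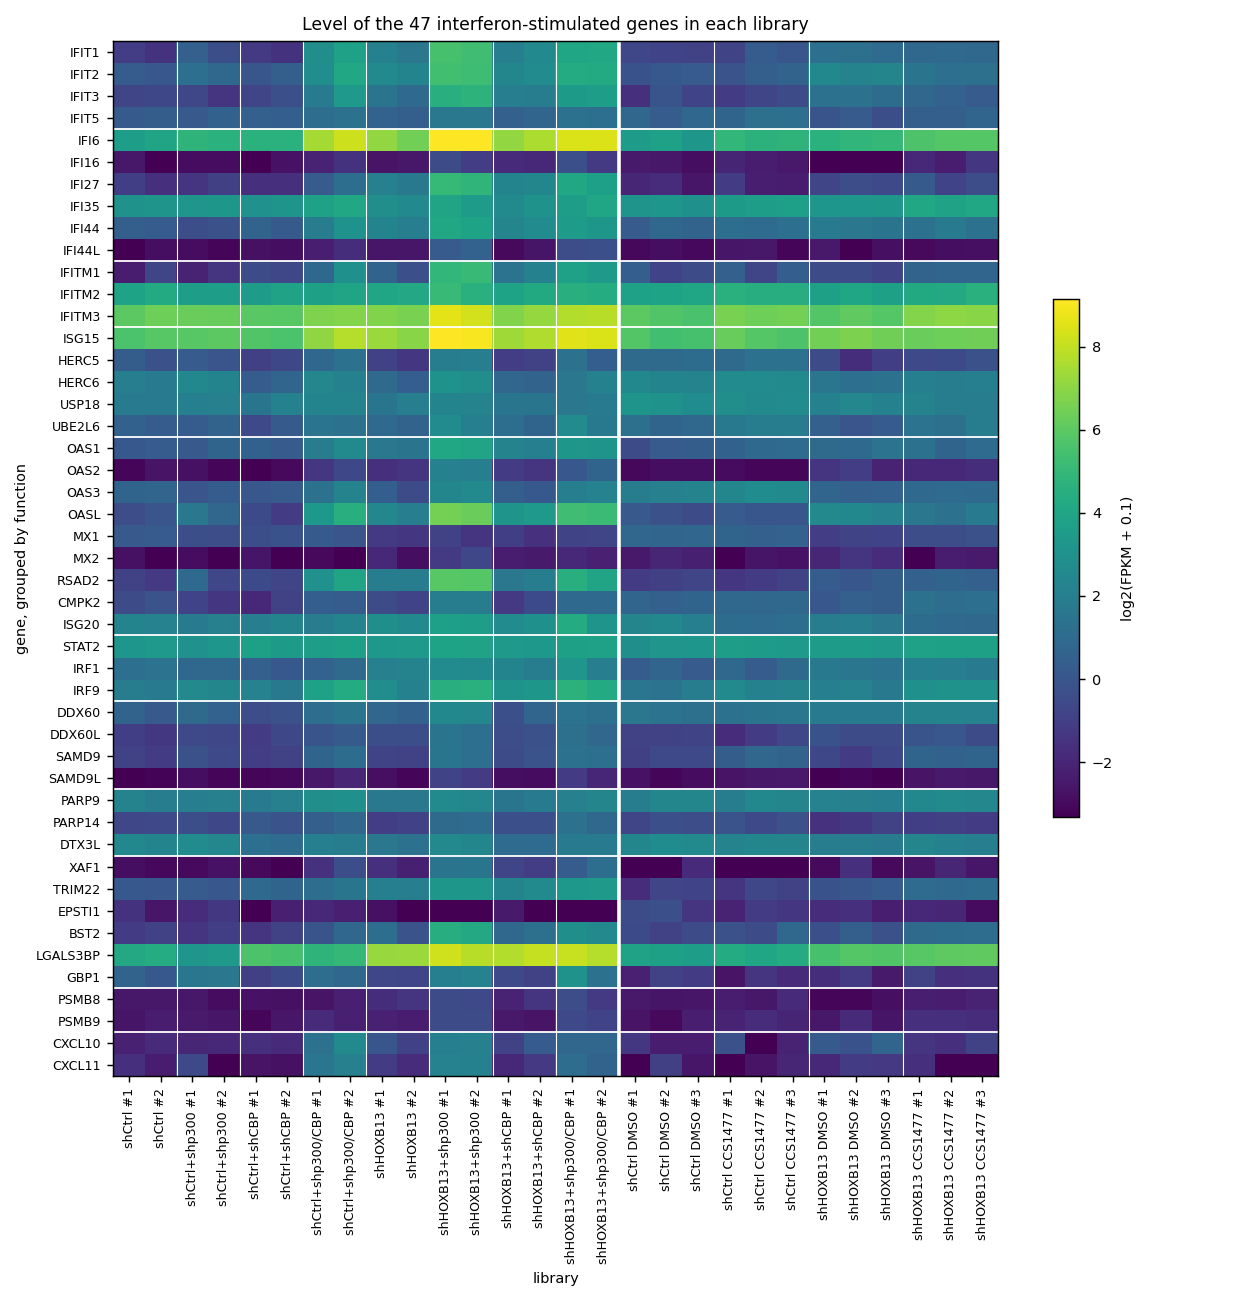
Level of each of the 47 genes (rows, grouped by function) in each of the 28 libraries (columns), as log2(FPKM + 0.1) on a colour scale. The 2 columns of shHOXB13+shp300 are the brightest of the knockdown series for most rows, whereas MX1 is brighter in shCtrl cells.

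Loss of HOXB13 by itself went with higher levels of many of the genes. In the knockdown series, 20 of the 47 were higher and 5 lower in shHOXB13 than in shCtrl cells, where 8.45% of all genes tested were called higher and 30.8% lower (limma, Benjamini-Hochberg adjusted p under 0.05, as for all calls below). The median log2 change was 0.53 for the 47 genes and -0.33 for all genes. Division by median-of-ratios size factors moved the median of all genes to 0.00 and that of the 47 to 0.80, and then called 24 higher and 3 lower. Both shHOXB13 libraries exceeded both shCtrl libraries for 29 of the 47 and for 19.4% of all genes, and lay below both for 10 of the 47 and for 52.4% of all genes. Without shCtrl #1 the number of calls fell from 25 to 16. Among the genes described by name, calls that held without each of the 4 libraries in turn included the higher levels of IFIT1, IFIT2, IFIT3, IFI6, IFI27, IFI44, ISG15, OAS1, OASL, RSAD2, TRIM22 and LGALS3BP. In the same comparison 3 of the 10 luminal markers were higher and 6 lower, none of the leukocyte markers was called, and 2 of the 5 fibroblast markers, COL1A1 (1.70, SE 0.40, adjusted p = 0.00552) and LUM (1.49, SE 0.50, adjusted p = 0.0323), were higher. The part of these in the result was not tested.

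The IFIT genes encode related antiviral proteins, of which IFIT1 binds viral RNA lacking host cap methylation. IFIT1 was at 0.383 and 0.249 FPKM in shCtrl and 4.31 and 3.02 FPKM in shHOXB13 cells, a log2 change of 3.18 (SE 0.35, adjusted p = 3.95e-05). IFIT2 and IFIT3 rose with it (log2 changes 2.30 and 1.89), whereas IFIT5, which lies in the same cluster on chromosome 10, was nearly level (0.24, SE 0.19, adjusted p = 0.362). IFI6, a mitochondrial and endoplasmic reticulum protein that restricts flaviviruses, went from 11.96 and 15.3 to 141 and 89.5 FPKM (3.04, SE 0.25, adjusted p = 5.15e-06). LGALS3BP, a secreted glycoprotein that binds galectins, went from 18.3 and 20.8 to 146 and 155 FPKM (2.94, SE 0.18, adjusted p = 5.11e-07). For each of IFIT1, IFI6 and LGALS3BP the groups did not overlap, and the lower shHOXB13 library was several times the higher shCtrl library.

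The genes that were lower in shHOXB13 cells were HERC6 (log2 change -1.20, SE 0.24, adjusted p = 0.00218) and HERC5 (-1.15, SE 0.34, adjusted p = 0.0173), related HERC ligases of which HERC5 attaches ISG15 to proteins, MX1 (-1.51, SE 0.27, adjusted p = 0.00109), an antiviral GTPase, and DTX3L (-0.94, SE 0.16, adjusted p = 0.000764) and PARP9 (-0.44, SE 0.16, adjusted p = 0.0498), partners in one ubiquitin ligase complex. The calls of HERC5 and PARP9 were lost with median-of-ratios size factors, which gave -0.80 and -0.05. Those of HERC6, MX1 and DTX3L held without each of the 4 libraries in turn, and those of HERC5 and PARP9 did not. As whole genes, MX1 overlaps TMPRSS2 and PARP9 overlaps DTX3L, each on the opposite strand. Reads were counted without regard to strand, so reads from the overlap of such a pair cannot be told apart by strand. Whether exons overlap was not examined. TMPRSS2 was at 342 and 347 FPKM in shCtrl and 255 and 245 FPKM in shHOXB13 cells, and the part of these reads in the MX1 values was not tested.

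**Figure D2:**
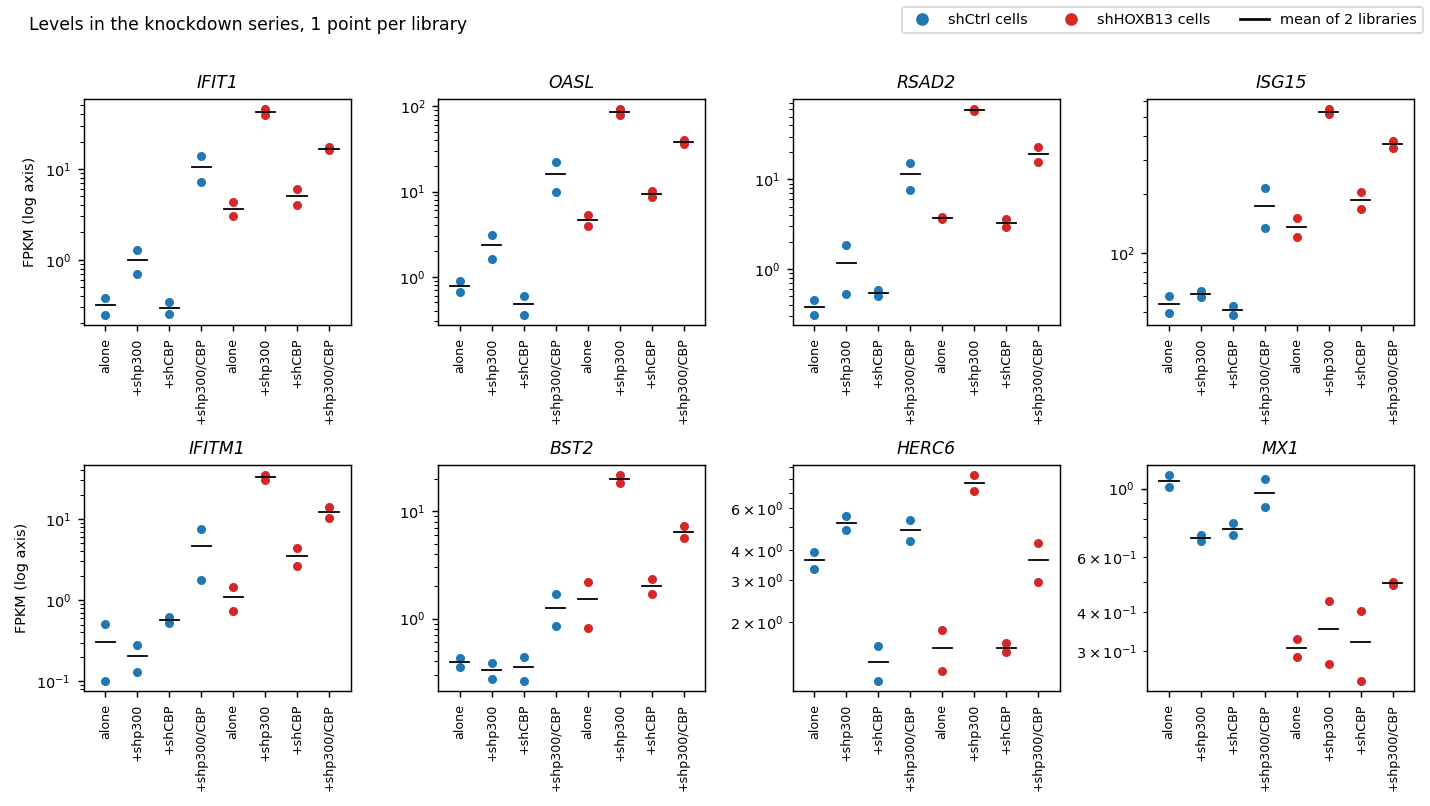
FPKM (log axis) of 8 genes in the 8 groups of the knockdown series, 1 point per library and a line at the mean of 2 libraries, shCtrl cells in blue and shHOXB13 cells in red. In 7 of the 8 panels the shHOXB13+shp300 points are the highest, and in that of MX1 the shCtrl cells are above the shHOXB13 cells.

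In shHOXB13 cells, addition of shp300 gave the largest number of calls among the 20 comparisons. Of the 47 genes, 40 were higher and 0 lower, where 3.5% of all genes tested were higher and 3.44% lower. The median log2 change was 1.97 for the 47 and 0.00 for all genes. Both libraries with shp300 exceeded both without it for 45 of the 47 and for 26.8% of all genes. The 40 calls became fewer when each of the 4 libraries was left out in turn, most so without shHOXB13 #2. Luminal prostate markers moved as well, 5 of the 10 being lower with shp300 in these cells. The summed level of the 7 leukocyte markers was 0.495 to 0.503 FPKM with shp300 and 0.623 to 0.881 FPKM without. That of 5 fibroblast markers was 1.201 to 1.64 FPKM in shCtrl, 4.55 to 5.37 FPKM in shHOXB13 and 7.99 to 8.60 FPKM in shHOXB13+shp300 cells, where LUM was the only one called (2.48, SE 0.50, adjusted p = 0.0128) and COL1A2 was listed at 0. The part of these markers in the result was not tested.

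All 4 IFIT genes rose with shp300 in shHOXB13 cells. IFIT1 reached 45.7 and 39.6 FPKM, a log2 change of 3.52 (SE 0.35, adjusted p = 0.00028) over shHOXB13 cells. IFIT3 went from 2.70 and 1.81 to 23.5 and 26.5 FPKM (3.44, SE 0.40, adjusted p = 0.000596). Both libraries with the second hairpin were far above both without it for each gene. IFIT2 rose by 2.86 and IFIT5 by 1.16 on the log2 scale. IFIT1, IFIT2 and IFIT3 overlap LIPA on the opposite strand.

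The 6 IFI genes and 3 IFITM genes rose too. IFI6, the gene with the highest level in the group, was at 564 and 552 FPKM (2.31, SE 0.25, adjusted p = 0.000471). IFI27, a small mitochondrial protein, rose by 3.03, IFI44 by 1.86 and IFI35 by 1.00 on the log2 scale. IFI44L, a neighbour of IFI44, was at 0.0678 and 0.0713 FPKM in shHOXB13 cells, which rests on 5 and 4 reads, and at 1.08 and 1.41 FPKM with shp300. The IFITM proteins keep viruses from fusing with endosomal and plasma membranes. IFITM1 went from 1.45 and 0.733 to 30.6 and 34.7 FPKM, the largest fitted change of the comparison (4.85, SE 0.63, adjusted p = 0.00111). In the shCtrl libraries IFITM1 stood on 1 and 5 reads, so that its changes from that group are poorly known. IFITM3 rose from 111 and 100.3 to 392 and 317 FPKM (1.74, SE 0.17, adjusted p = 0.000236) and IFITM2 by 0.75 on the log2 scale, and as the 3 are near-identical in sequence, reads may have been shared among them.

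Of the 5 genes of ISG15 conjugation, 4 rose. ISG15, a ubiquitin-like modifier, was at 151 and 121 FPKM in shHOXB13 cells and at 547 and 513 FPKM with shp300 (1.97, SE 0.21, adjusted p = 0.000398). UBE2L6, its conjugating enzyme, rose by 1.58 and HERC5 by 3.05 on the log2 scale. HERC6 went from 1.85 and 1.24 to 8.28 and 7.13 FPKM (2.27, SE 0.24, adjusted p = 0.000423), so that a gene lower in shHOXB13 than in shCtrl cells stood above its shCtrl level of 3.93 and 3.32 FPKM. The comparisons of shHOXB13 with shCtrl and of shp300 within shHOXB13 cells share the shHOXB13 libraries. USP18, the protease that removes ISG15 and damps receptor signalling, was at 2.75 and 3.92 FPKM without and 4.81 and 4.73 FPKM with shp300 and did not pass the test (0.52, SE 0.20, adjusted p = 0.149).

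Among the 9 antiviral enzymes and GTPases, 6 rose. The OAS proteins make 2′-5′ oligoadenylates that activate RNase L, and OASL is their inactive relative that binds the sensor RIG-I. OASL went from 5.37 and 3.98 to 93.2 and 79.4 FPKM (4.19, SE 0.37, adjusted p = 0.000152). OAS2 went from 0.233 and 0.273 to 4.37 and 3.96 FPKM (3.60, SE 0.35, adjusted p = 0.000245). The groups were well separated for both, and OAS1 and OAS3 rose by 2.47 and 2.53. RSAD2, or viperin, which makes a chain-terminating nucleotide, went from 3.85 and 3.65 to 60.7 and 57.0 FPKM (3.94, SE 0.44, adjusted p = 0.000485). CMPK2, the nucleotide kinase encoded next to RSAD2 and overlapping it on the opposite strand, went from 0.655 and 0.481 to 3.78 and 3.70 FPKM (2.54, SE 0.36, adjusted p = 0.00196). The 2 had not moved together with shHOXB13 alone, where RSAD2 rose by 3.01 and CMPK2 had a log2 change of -0.30 (SE 0.36, adjusted p = 0.542). MX1 was at 0.328 and 0.287 FPKM without and 0.435 and 0.272 FPKM with shp300 (0.13, SE 0.27, adjusted p = 0.836), and its libraries overlapped. Both of these groups were below both shCtrl libraries, which were at 1.01 and 1.10 FPKM. ISG20, an exonuclease, was at 13.1 and 12.7 FPKM against 7.34 and 5.98 FPKM, which did not pass the test (0.95, SE 0.30, adjusted p = 0.0836) but did with median-of-ratios size factors.

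The remaining groups followed. BST2, or tetherin, which holds budding virions at the cell surface, went from 2.20 and 0.825 to 21.6 and 18.1 FPKM (3.77, SE 0.41, adjusted p = 0.000471). XAF1, a pro-apoptotic zinc-finger protein, went from 0.221 and 0.116 FPKM, which rests on 10 and 4 reads, to 2.67 and 2.75 FPKM (3.42, SE 0.43, adjusted p = 0.000939). TRIM22, a ubiquitin ligase, GBP1, a guanylate-binding GTPase, and LGALS3BP rose by 1.21, 2.83 and 0.77 on the log2 scale. The helicase DDX60, its paralog DDX60L and SAMD9 rose by 1.80, 1.66 and 2.18, and PARP9, the ADP-ribosyltransferase PARP14 and DTX3L by 0.85, 1.97 and 1.02. CXCL10 and CXCL11 encode chemokines that draw CXCR3-bearing T cells. CXCL10 was at 0.920 and 0.432 FPKM without and 4.03 and 4.18 FPKM with shp300 (2.51, SE 0.46, adjusted p = 0.0077). CXCL11 was at 0.349 and 0.197 and 4.51 and 4.35 FPKM (3.63, SE 0.67, adjusted p = 0.00835). Each rested on few reads, CXCL11 on 7 and 3 in shHOXB13 cells, and both overlap ART3 on the opposite strand. The 6 genes with no group mean of 1 FPKM or more in either series, EPSTI1, IFI16, MX2, PSMB8, PSMB9 and SAMD9L, are counted but not described further. Levels in each library are given for the genes with the largest called changes and for STAT2, IRF9 and IRF1, and those of LGALS3BP, HERC6, MX1, ISG15, IFITM3, IFI44L, USP18, ISG20, GBP1 and, for the inhibitor, SAMD9 and IFIT2 were added after the values had been seen.

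Of the 3 transcription factors of the group, 2 rose with shp300 in shHOXB13 cells. IRF9, the DNA-binding subunit of ISGF3, went from 3.71 and 3.37 FPKM in shCtrl to 6.81 and 4.38 FPKM in shHOXB13 cells, which did not pass the test (0.61, SE 0.24, adjusted p = 0.0658) but did with median-of-ratios size factors. With shp300 in shHOXB13 cells it reached 22.9 and 23.6 FPKM (2.07, SE 0.24, adjusted p = 0.000663). STAT2, its partner, was at 9.96 and 10.3 FPKM without and 15.1 and 14.2 FPKM with shp300 (0.53, SE 0.13, adjusted p = 0.0354). The groups did not overlap for either gene, and the shift of STAT2 was the smallest among the 40 called. IRF1, a factor induced chiefly by type II interferon, was higher in shHOXB13 (4.27 and 4.70 FPKM) than in shCtrl cells (2.24 and 2.62 FPKM; 0.86, SE 0.31, adjusted p = 0.0454), and did not pass the test with shp300 (0.45, SE 0.31, adjusted p = 0.437).

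In shCtrl cells, shp300 gave no such response. Of the 47 genes, 0 were higher and 1 lower, where 1.05% of all genes tested were higher and 2.19% lower, and 11 had an unadjusted p under 0.05. The median log2 change was 0.06 for the 47 and -0.01 for all genes. The single call was LGALS3BP, which went from 18.3 and 20.8 to 8.97 and 10.7 FPKM (-0.98, SE 0.18, adjusted p = 0.0127), and no call was left without shCtrl #1, shCtrl #2 or shCtrl+shp300 #1, while 2 were made without shCtrl+shp300 #2. IFIT1 was at 1.29 and 0.691 FPKM (1.35, SE 0.35, adjusted p = 0.0587) and OASL at 3.06 and 1.61 FPKM (1.43, SE 0.37, adjusted p = 0.058), each above both shCtrl libraries. With median-of-ratios size factors IFIT1, IFI6 and OASL were called higher, which made it 3 higher and 1 lower.

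The difference between the responses to shp300 in shHOXB13 and shCtrl cells was tested as an interaction. It was positive for 18 of the 47 genes and negative for 0, where 0.498% of all genes tested were positive and 0.356% negative, and its median was 1.76 for the 47 and 0.03 for all genes. The largest terms were those of IFITM1 (5.10, SE 0.89, adjusted p = 0.0211), BST2 (3.98, SE 0.59, adjusted p = 0.0106) and IFIT3 (3.80, SE 0.56, adjusted p = 0.0106). The count was sensitive to single libraries. It fell to 3 without shHOXB13 #2, 4 without shCtrl #2, 7 without shCtrl+shp300 #1, 10 without shHOXB13+shp300 #2 and 11 without either shHOXB13+shp300 #1 or shCtrl+shp300 #2. OAS2 (3.64, SE 0.49, adjusted p = 0.00789) was the 1 gene whose call held without each of the 8 libraries in turn. IFIT1 (2.17, SE 0.49, adjusted p = 0.0716) and RSAD2 (2.72, SE 0.62, adjusted p = 0.0712), which rose steeply in shHOXB13 cells, did not pass this test, their values in shCtrl+shp300 being 1.29 and 0.691 and 1.85 and 0.536 FPKM.

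**Figure D3:**
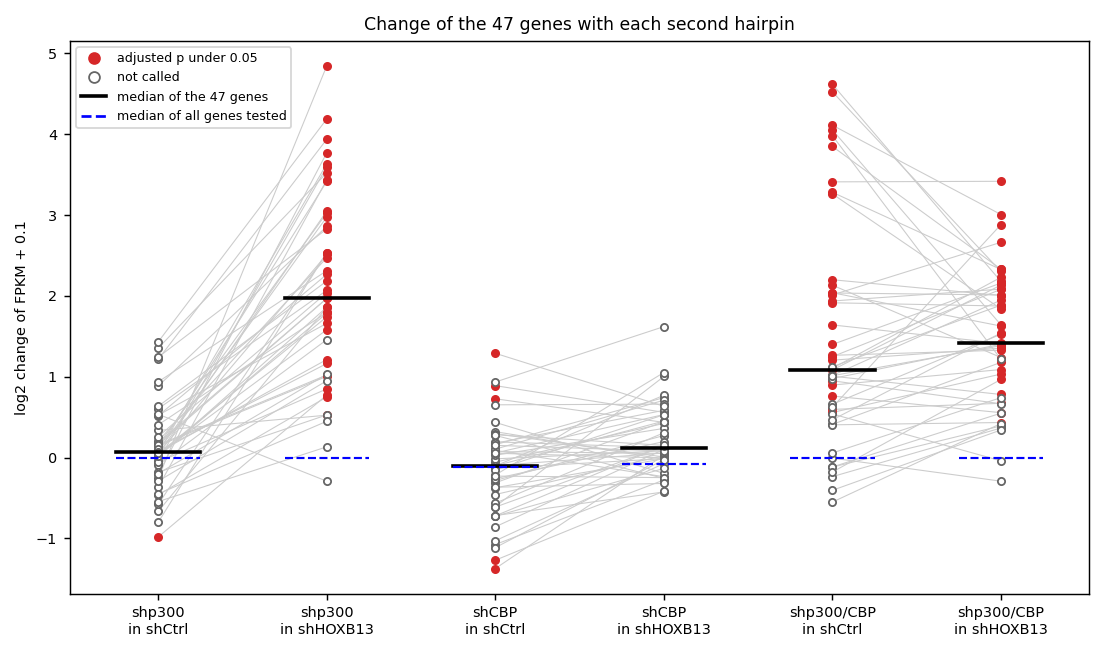
Log2 change of FPKM + 0.1 for each of the 47 genes (points, red where adjusted p is under 0.05) with shp300, shCBP and shp300/CBP in shCtrl and in shHOXB13 cells, grey lines joining the same gene. Black bars mark the median of the 47 genes, 0.06 and 1.97 with shp300, -0.10 and 0.12 with shCBP, 1.08 and 1.41 with shp300/CBP, and blue dashes the median of all genes tested.

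With shCBP few of the genes were called in either background. In shHOXB13 cells 0 of the 47 were called, where 0.402% of all genes tested were higher and 1.13% lower. There 11 had an unadjusted p under 0.05, the median log2 change was 0.12, and median-of-ratios size factors, TPM scaling and voom each called 1 gene, LGALS3BP. In shCtrl cells 3 were higher and 2 lower, where 4.14% of all genes were higher and 8.09% lower. The median log2 change there was -0.10 for the 47 and -0.11 for all genes, and 0.03 and 0.00 with median-of-ratios size factors. Those higher were LGALS3BP, at 50.8 and 45.03 FPKM (1.29, SE 0.18, adjusted p = 0.0019), IFI6, at 25.2 and 25.1 FPKM (0.89, SE 0.25, adjusted p = 0.0403), and TRIM22 (0.73, SE 0.18, adjusted p = 0.0209). HERC6 (-1.37, SE 0.24, adjusted p = 0.00558) and DTX3L (-1.27, SE 0.16, adjusted p = 0.00115) were lower. The count was 2 without shCtrl #1 or shCtrl+shCBP #1 and 3 without shCtrl #2, and the calls of LGALS3BP and DTX3L held without each of the 4 libraries in turn. The interaction of shHOXB13 and shCBP was called for 0 of the 47, where 0.243% of all genes were positive and 0.362% negative, with 5 at an unadjusted p under 0.05 and 2 calls with voom.

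The hairpins to p300 and CBP were also set directly against each other. In shHOXB13 cells 35 of the 47 genes were higher with shp300 than with shCBP and 0 lower, where 1.86% and 0.718% of all genes were, and the median difference was 1.65 on the log2 scale, against 0.08 for all genes. The count was 22 without shHOXB13+shp300 #1 and 20 without shHOXB13+shCBP #1. RSAD2, at 2.94 and 3.61 FPKM with shCBP and 60.7 and 57.0 FPKM with shp300, had the largest difference (4.13, SE 0.44, adjusted p = 0.000927). In shCtrl cells 6 genes were higher with shp300 (IFIT1, OASL, HERC6, DDX60, DTX3L and GBP1) and 3 lower (STAT2, TRIM22 and LGALS3BP), where 7.96% and 5.18% of all genes were, so that the shares of the 47 were near those of all genes. Without shCtrl+shp300 #1 or shCtrl+shCBP #1 that count was 5. LGALS3BP was at 8.97 and 10.7 FPKM with shp300 and 50.8 and 45.03 FPKM with shCBP (-2.27, SE 0.18, adjusted p = 4.58e-05), lying on either side of its level in shCtrl cells.

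With both hairpins many of the genes were also higher in cells without the hairpin to HOXB13, although HOXB13 itself was lower there (-0.81, SE 0.17, adjusted p = 0.0064). In shCtrl cells 29 of the 47 genes were higher with shp300/CBP and 0 lower, where 8.9% and 9.4% of all genes were, and the median log2 change was 1.08 against 0.00 for all genes. IFIT1 went from 0.383 and 0.249 to 7.15 and 13.9 FPKM (4.62, SE 0.35, adjusted p = 2.57e-05). RSAD2 went from 0.454 and 0.314 to 7.73 and 15.4 FPKM (4.53, SE 0.44, adjusted p = 7.86e-05). OASL went from 0.660 and 0.881 to 9.90 and 22.2 FPKM (4.11, SE 0.37, adjusted p = 6.41e-05). In each case the 2 libraries with shp300/CBP lay about 2-fold apart, #2 above #1, and both were well above the shCtrl libraries. IFI6 rose to 176 and 291 FPKM (4.05, SE 0.25, adjusted p = 9.29e-06), CXCL10 to 2.45 and 5.94 FPKM (3.98, SE 0.46, adjusted p = 0.000223) and CXCL11 to 2.89 and 4.24 FPKM (3.85, SE 0.67, adjusted p = 0.00246). The count was 17 without shCtrl+shp300/CBP #2 and 25 without #1. All 4 IFIT genes and 5 of the 6 IFI genes were among the 29, but only 1 of the 5 genes of ISG15 conjugation, ISG15 itself. Luminal markers were higher for 1 and lower for 5 of the 10 genes, and fibroblast markers summed to 2.90 to 3.18 FPKM, against 1.201 to 1.64 FPKM in shCtrl cells, with LUM called higher (3.73, SE 0.50, adjusted p = 0.000549). The part of these in the result was not tested.

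In shHOXB13 cells 37 of the 47 genes were higher with shp300/CBP and 0 lower, where 10.4% and 16.2% of all genes were, and the median log2 change was 1.41 against 0.00. IFIT1 was at 15.997 and 17.4 FPKM (2.18, SE 0.35, adjusted p = 0.00109), OASL at 40.0 and 35.8 FPKM (3.01, SE 0.37, adjusted p = 0.000229) and BST2 at 7.28 and 5.64 FPKM (2.16, SE 0.41, adjusted p = 0.00304). All of these libraries were between those of shHOXB13 and shHOXB13+shp300 cells. IRF9 was at 25.6 and 19.3 FPKM (2.00, SE 0.24, adjusted p = 0.000229) and GBP1 at 8.25 and 2.41 FPKM (2.88, SE 0.43, adjusted p = 0.000709), with #1 above #2 in both. Luminal markers were lower for 9 of the 10 genes in this comparison, leukocyte markers summed to 0.472 to 1.70 FPKM and fibroblast markers to 6.29 to 18.2 FPKM, and the part of these in the result was not tested. The test of whether the response to both hairpins depended on shHOXB13 was positive for GBP1 (2.26, SE 0.60, adjusted p = 0.041) and negative for IFIT1 (-2.44, SE 0.49, adjusted p = 0.0127), IFI6 (-2.41, SE 0.36, adjusted p = 0.00296), RSAD2 (-2.22, SE 0.62, adjusted p = 0.048) and CXCL10 (-2.77, SE 0.64, adjusted p = 0.0234), where 2.54% and 5.59% of all genes were. Its median over the 47 was 0.15. The count of 5 was 1 without shHOXB13 #1, shCtrl #2 or shCtrl+shp300/CBP #2, 2 without shCtrl #1 or shHOXB13+shp300/CBP #1, 3 without shHOXB13 #2, and 10 with voom (6 positive and 4 negative), while median-of-ratios size factors gave 2 positive and 4 negative, and equal sums of FPKM gave 2 positive and 3 negative. Only the call of IFI6 held without each of the 8 libraries in turn.

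The groups with shp300/CBP and with shp300 alone were compared after these values had been seen. They differed in EP300 as well as in CREBBP, which was lower with shp300/CBP in both backgrounds. EP300 was at 4.9975 and 6.78 FPKM with shp300/CBP and 4.34 and 4.87 FPKM with shp300 in shCtrl cells. In shHOXB13 cells it was at 4.17 and 4.47 FPKM and 3.16 and 3.39 FPKM. The part of this weaker depletion of EP300 in the result was not tested. In shCtrl cells 27 of the 47 genes were higher with shp300/CBP than with shp300 alone and 0 lower, where 3.5% and 2.81% of all genes were, with a median of 1.08 on the log2 scale. That count was 16 without shCtrl+shp300 #1 and 12 without shCtrl+shp300/CBP #2. In shHOXB13 cells 0 were higher and 4 lower, where 0.679% and 3.12% of all genes were, with a median of -0.62. Those 4 were OAS2 (-1.72, SE 0.35, adjusted p = 0.0249), HERC6 (-1.09, SE 0.24, adjusted p = 0.033), IFITM3 (-0.71, SE 0.17, adjusted p = 0.0401) and DTX3L (-0.68, SE 0.16, adjusted p = 0.0417), and their number was 0 without shHOXB13+shp300 #1, 1 without shHOXB13+shp300 #2 or shHOXB13+shp300/CBP #1, 14 with a pseudocount of 1 and 16 with voom. Both libraries with shp300 alone exceeded both with shp300/CBP for 32 of the 47 and lay below both for 2, where 26.0% and 16.7% of all genes did. The difference between the backgrounds was negative for 18 genes and positive for 0, where 0.747% and 0.0735% of all genes were, with a median of -1.41. CXCL10 (-5.23, SE 0.64, adjusted p = 0.00452), RSAD2 (-4.95, SE 0.62, adjusted p = 0.00452) and IFIT3 (-4.76, SE 0.56, adjusted p = 0.00452) kept this call without each of the 8 libraries in turn, as did 8 others.

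Presence of an ISRE match in the printed window did not separate the responses to shp300 in shHOXB13 cells. There 23 of the 27 genes with a match were higher, with a median log2 change of 1.97, and 12 of the 13 without one, with a median of 2.04. With shp300/CBP in shCtrl cells 20 of the 27 and 5 of the 13 were higher. With shHOXB13 alone 14 of the 27 and 2 of the 13 were, and 4 and 1 were lower. By the GAS core, 9 of the 13 genes with a match and 26 of the 27 without were higher with shp300 in shHOXB13 cells. Their median log2 changes were 1.97 and 2.04. In shCtrl cells with shp300/CBP 9 and 16 of these were higher, and with shHOXB13 alone 6 and 10 were. OAS1 and HERC6, whose promoters are printed above without capitals, rose by 2.47 and 2.27 with shp300 in shHOXB13 cells, and MX1, which did not pass that test, holds a match in 2 of its 3 listed promoters. GAAA repeats with another spacing, as in OAS1, counted as no match, so a gene without a match may still hold a response element. These shares are descriptions, and genes of one cluster are not independent.

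Of the 47 genes, 29 lay in 12 clusters with gaps of at most 200 kb, and neighbours did not always move together. The OAS cluster (GRCh38, chr12:112905856-113011723) holds OAS1, OAS3 and OAS2. With shHOXB13, OAS1 and OAS2 rose by 1.35 and 1.40, while OAS3 had a log2 change of -0.73 (SE 0.32, adjusted p = 0.0892). In the inhibitor series the same contrast under DMSO gave 1.05 (SE 0.26, adjusted p = 0.00382) for OAS1 and 1.42 (SE 0.29, adjusted p = 0.00137) for OAS2, but -1.48 (SE 0.13, adjusted p = 1.41e-06) for OAS3, which was lower. HERC5 and HERC6 (chr4:88378739-88506163) were both lower with shHOXB13 and both higher with shp300 in shHOXB13 cells. Of the pair DDX60 and DDX60L (chr4:168216291-168537786), DDX60L was higher with shHOXB13 (0.83, SE 0.26, adjusted p = 0.0224) and DDX60 did not pass the test (0.27, SE 0.30, adjusted p = 0.515).

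The interferon genes themselves were near or at 0 in most libraries. Type I interferon genes IFNA1, IFNA2, IFNE and IFNK and the type II gene IFNG were listed at 0 in all 28 libraries. IFNL1, a type III interferon, was listed at 0 in shCtrl, shCtrl+shp300 and shCtrl+shCBP cells. It was at 0.280 and 0.245 FPKM in shHOXB13 cells, 0.626 and 0.880 FPKM with shCBP, 2.99 and 5.0004 FPKM with shp300/CBP and 5.01 and 5.42 FPKM with shp300 (3.87, SE 0.29, adjusted p = 5.57e-05 over shHOXB13 cells). In shCtrl+shp300/CBP cells it was at 0.458 and 0.572 FPKM. Levels of IFNL1 under about 1 FPKM rest on few reads, so its fold changes are poorly known. IFNL1 was several-fold lower in shCtrl+shp300/CBP than in shHOXB13+shp300/CBP cells. IFIT1 was at 7.15 and 13.9 FPKM in the former and 15.997 and 17.4 FPKM in the latter. Any link between these genes was not tested. IFNL2 and IFNL3, which are near-identical to each other, reached 0.834 and 0.753 and 1.44 and 1.67 FPKM in shHOXB13+shp300 cells, and IFNB1, the type I gene of most non-immune cells, was at 0.292 and 0.921 FPKM there and did not pass the test (1.89, SE 0.97, adjusted p = 0.281). IFNLR1, the specific subunit of the type III receptor, did not exceed 0.03 FPKM in any library.

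Of 20 genes of interferon signalling outside the 47, 17 could be tested. With shp300 in shHOXB13 cells 3 were higher and 0 lower, where 3.5% and 3.44% of all genes were. Those higher included the kinase JAK2 (1.00, SE 0.18, adjusted p = 0.00876) and IRF7, a factor for interferon genes (1.13, SE 0.21, adjusted p = 0.00876). With shp300/CBP 6 of the 17 were higher and 0 lower in shCtrl cells, where 8.9% and 9.4% of all genes were, and 7 were higher and 2 lower in shHOXB13 cells, where 10.4% and 16.2% of all genes were. In the latter IRF7 rose to 25.1 and 19.5 FPKM and the receptor subunits IFNAR1 and IFNGR1 were lower. With shHOXB13 alone 0 were higher and 5 lower, among them JAK2 (-1.81, SE 0.18, adjusted p = 2.25e-05). The 5 of 17 were near the 30.8% of all genes that were lower there, and with median-of-ratios size factors 4 were higher and 2 lower. With shp300 in shCtrl cells and with shCBP in shHOXB13 cells 0 were called. With shCBP in shCtrl cells 3 were higher and 0 lower, where 4.14% and 8.09% of all genes were. With CCS1477 7 were higher and 0 lower in shCtrl cells, where 15.4% and 9.91% of all genes were, and 13 were higher and 0 lower in shHOXB13 cells, where 29.2% and 10.4% of all genes were. With median-of-ratios size factors each of these counts was 6 higher and 0 lower.

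In the inhibitor series, which has its own shCtrl and shHOXB13 libraries, the shHOXB13 contrast under DMSO called 17 of the 45 genes tested higher and 11 lower, where 15.2% and 42.4% of all genes were. IFI44L and SAMD9L were too low to be tested. The median log2 change was 0.31 for the 45 genes and -0.33 for all genes, and with median-of-ratios size factors, which moved the latter to -0.01, 22 were higher and 6 lower. Of the genes, 15 were higher with shHOXB13 in both series (IFIT1, IFIT2, IFIT3, IFI6, IFI27, IFI44, ISG15, OAS1, OAS2, OASL, RSAD2, IRF1, TRIM22, LGALS3BP and CXCL10), 4 were lower in both (HERC5, HERC6, MX1 and DTX3L), and 0 were called in opposite directions, where 6.56%, 27.6% and 0.552% of all genes tested in both series were. OASL was at 0.797 ± 0.190 FPKM (SD, n = 3) in shCtrl and 5.26 ± 0.616 FPKM (SD, n = 3) in shHOXB13 cells under DMSO (2.59, SE 0.18, adjusted p = 2.79e-07). IFIT2 was at 0.948 ± 0.156 and 5.06 ± 0.500 FPKM (2.31, SE 0.20, adjusted p = 1.57e-06). MX1 was at 1.61 ± 0.0400 and 0.445 ± 0.0601 FPKM (-1.66, SE 0.15, adjusted p = 2.64e-06). The 3 libraries of each group lay on one side of the other group for these genes.

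CCS1477 was called for fewer of the genes than shHOXB13 was, and not all moved the same way. In shCtrl cells 12 of the 45 were higher and 1 lower, where 15.4% and 9.91% of all genes were. In shHOXB13 cells 18 were higher and 4 lower, where 29.2% and 10.4% of all genes were. The median log2 changes were 0.28 and 0.36 for the 45, against 0.06 and 0.20 for all genes. With median-of-ratios size factors, which moved the latter from 0.20 to 0.01, the split in shHOXB13 cells was 13 higher and 6 lower. Luminal prostate markers were lower with CCS1477 for 3 of the 10 genes in shCtrl and 7 in shHOXB13 cells, where leukocyte markers summed to 0.322 to 0.672 FPKM against 0.523 to 1.13 FPKM under DMSO. In shCtrl cells leukocyte markers summed to 0.914 to 1.04 FPKM with CCS1477 against 0.253 to 0.280 FPKM under DMSO, with SPI1 called higher. Fibroblast markers summed to 3.83 to 5.58 FPKM with CCS1477 against 2.91 to 3.09 FPKM in shCtrl cells, and to 5.02 to 5.60 FPKM against 2.67 to 2.93 FPKM in shHOXB13 cells, with COL1A1 called higher in both. The part of these markers in the result was not tested. SAMD9, an antiviral factor that blocks poxvirus translation, was at 0.415, 0.563 and 0.570 FPKM under DMSO and 1.18, 1.63 and 1.44 FPKM with CCS1477 in shCtrl cells (1.30, SE 0.21, adjusted p = 0.000933), and at 0.548, 0.342 and 0.554 and 1.496, 1.36 and 1.52 FPKM in shHOXB13 cells (1.44, SE 0.21, adjusted p = 0.000233). UBE2L6 rose in both (0.91 and 1.29), as did IFITM3 (0.72 and 1.00), IFI6 (1.26 and 0.96) and IRF9 (0.71 and 1.01). IRF9 was at 2.87, 2.56 and 3.72 FPKM under DMSO and 6.16, 4.34 and 4.69 FPKM with CCS1477 in shCtrl cells, and at 4.04, 4.52 and 3.14 and 7.60, 8.26 and 7.74 FPKM in shHOXB13 cells. STAT2 went from 7.28, 9.00 and 9.24 to 12.02, 11.6 and 10.7 FPKM in shCtrl cells (0.43, SE 0.09, adjusted p = 0.00534). Its change in shHOXB13 cells (0.29) was lost with median-of-ratios size factors.

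The genes that were lower with CCS1477 were few and included OASL and IFIT2, which had the largest shHOXB13 changes under DMSO. ISG20 was lower in both backgrounds, from 5.03, 5.46 and 4.11 to 2.01, 1.92 and 2.17 FPKM in shCtrl cells (-1.21, SE 0.14, adjusted p = 0.000137) and from 3.80, 3.93 and 2.93 to 2.02, 1.81 and 1.75 FPKM in shHOXB13 cells (-0.89, SE 0.14, adjusted p = 0.000538). In shHOXB13 cells IFIT2 went from 5.61, 4.63 and 4.94 to 2.70, 2.24 and 2.32 FPKM (-1.04, SE 0.20, adjusted p = 0.00169), and OASL from 5.67, 5.57 and 4.56 to 2.99, 2.39 and 3.34 FPKM (-0.84, SE 0.18, adjusted p = 0.0034). The treated and untreated libraries did not overlap, and in shCtrl cells neither IFIT2 (0.28, SE 0.20, adjusted p = 0.352) nor OASL (0.28, SE 0.18, adjusted p = 0.306) passed the test. The interaction of shHOXB13 and CCS1477 was negative for IFIT2 (-1.31, SE 0.28, adjusted p = 0.0119) and OASL (-1.12, SE 0.26, adjusted p = 0.0162) and positive for MX1 (0.75, SE 0.22, adjusted p = 0.0408) and CMPK2 (0.77, SE 0.21, adjusted p = 0.0306), where 4.15% and 9.1% of all genes were. With median-of-ratios size factors, which moved the median of all genes from 0.13 to 0.01, 0 were positive and 5 negative, and the calls of MX1 and CMPK2 were lost. The count of 4 was 2 without shCtrl DMSO #3, shCtrl CCS1477 #2, shHOXB13 DMSO #1 or any one of the shHOXB13 CCS1477 libraries, and those of IFIT2 and OASL held without each of the 12 libraries in turn.

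**Figure D4:**
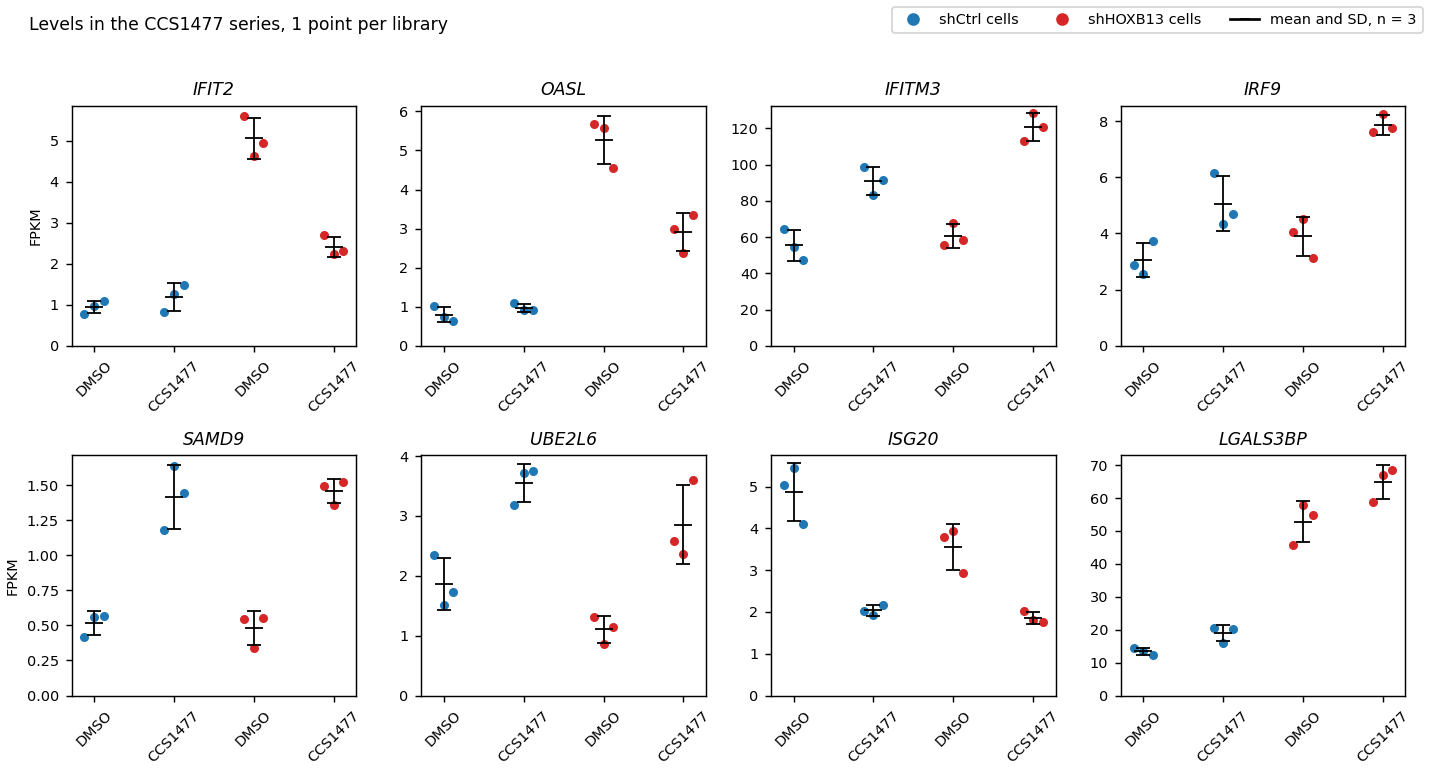
FPKM (linear axes from 0) of 8 genes in the 4 groups of the inhibitor series, 1 point per library with mean and SD (n = 3). IFIT2 and OASL are highest in shHOXB13 cells under DMSO, IFITM3 and IRF9 are highest with CCS1477 in shHOXB13 cells, and ISG20 is lower with CCS1477 in both backgrounds.

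Under CCS1477, shHOXB13 cells still differed from shCtrl cells. Of the 45 genes, 19 were higher and 6 lower, where 12% and 30.9% of all genes were, and the median log2 change was 0.41 against -0.20 for all genes. LGALS3BP was at 18.9 ± 2.43 FPKM (SD, n = 3) in shCtrl and 64.8 ± 5.24 FPKM (SD, n = 3) in shHOXB13 cells (1.78, SE 0.11, adjusted p = 3.06e-07), close to the difference under DMSO (1.97). TRIM22, at 2.01 under CCS1477 and 1.13 under DMSO, and IRF1, at 1.23 and 1.13, were called in both. OAS3 (-1.61), HERC5 (-1.68), MX1 (-0.90), USP18 (-0.69), HERC6 (-0.64) and PARP14 (-0.74) were the 6 that were lower.

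The values with CCS1477 and with shp300 are given side by side, since the series differed in agent, time and libraries and were not tested against each other. The summed level of the 47 genes was 316 to 358 FPKM under DMSO and 422 to 459 FPKM with CCS1477 in shHOXB13 cells, and 205 to 233 FPKM and 292 to 333 FPKM in shCtrl cells. IFIT1 had a log2 change of -0.28 (SE 0.24, adjusted p = 0.375) with CCS1477, RSAD2 of 0.34 (SE 0.20, adjusted p = 0.205) and BST2 of 1.09 (SE 0.32, adjusted p = 0.0191), where shp300 gave 3.52, 3.94 and 3.77. IFNL1 did not exceed 0.289 FPKM, the value of shCtrl DMSO #1, in the inhibitor series.

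**Figure D5:**
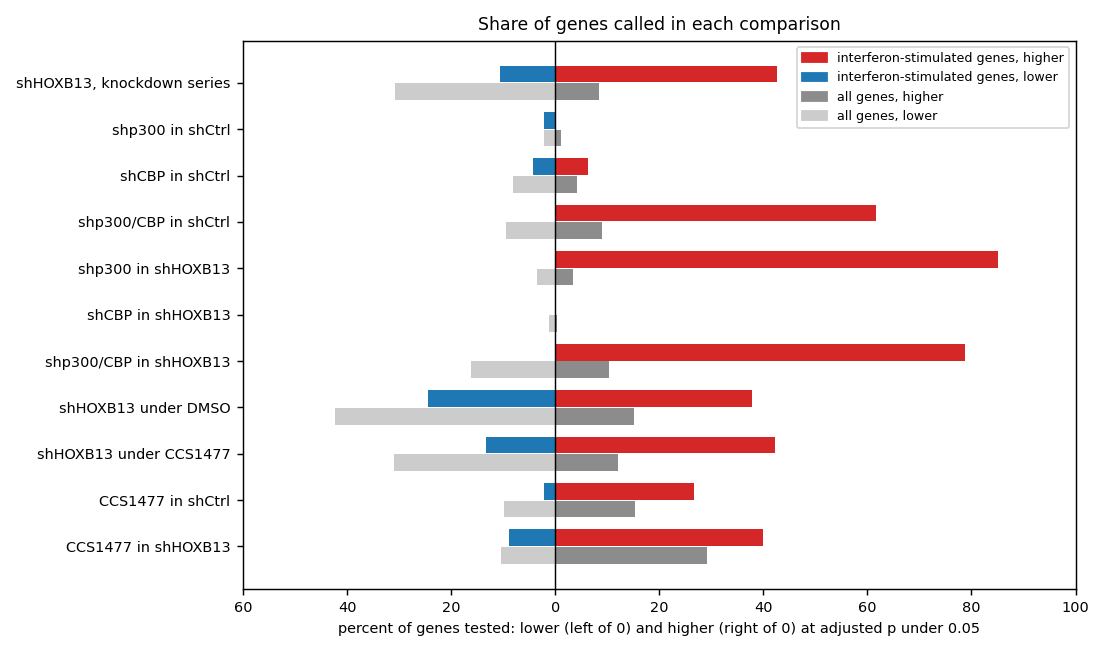
Percent of the interferon-stimulated genes (coloured) and of all genes tested (grey) called higher (right of 0) or lower (left of 0) in 11 comparisons. The coloured bars exceed the grey ones most with shp300 in shHOXB13 cells (40 of 47 against 3.5%), and both are short with shp300 in shCtrl cells and with shCBP in shHOXB13 cells.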

How the data were processed

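RNA-seq libraries of LNCaP cells were grouped by the labels into 8 groups of 2 (knockdown series) and 4 groups of 3 (inhibitor series). The authors aligned the reads with STAR 2.6.0 to GRCh38, counted them per gene without regard to strand, and deposited FPKM values, scaled to gene length and to the total of mapped reads in each library, so that a shift in the share of reads falling in genes moves every gene of that library. Whole reads could be recovered, since 100% of 475360 values above 0 were whole multiples of 1 read within 0.05.

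Values were tested with limma 3.58.1 (trend option, R 4.3.3) on log2(FPKM + 0.1), with 1 fit per series over all of its groups. Fold changes of low genes are understated on this scale. Genes at 0.1 FPKM or more in at least 2 (knockdown) or 3 (inhibitor) libraries entered, 17678 and 15907 in number. P-values were adjusted by Benjamini-Hochberg over all genes tested and called under 0.05. This replaced the pairwise count test of the study, because the values are FPKM. The 47 members and the lists of signalling, ligand and marker genes were chosen with earlier results of these data known, and 3 comparisons of shp300/CBP with shp300 were added after the values had been seen. Members called in at least 1 comparison and with a group mean of 1 FPKM or more, 41 in number, were named, and libraries were given one by one for the 12 with the largest called changes and for STAT2, IRF9 and IRF1.

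Alternatives were a pseudocount of 1, no filter, median-of-ratios size factors, equal sums of FPKM (TPM), the replicate number as a block, voom on the recovered reads, a fit of only the groups compared, a fold change of at least 1.5, and leaving out each library in turn. The scripts were tested on simulated data with known changes, in which every gene had the same dispersion. For shp300 in shHOXB13 cells, 1.59% of 1.5-fold, 36.4% of 2-fold and 75.8% of 4-fold changes were called in the right direction. For CCS1477 in shHOXB13 cells these shares were 14.1%, 58.7% and 80%. A gene not called may thus have changed, and the shares may differ in real libraries, whose spread varies. Deviations of same-numbered libraries of different groups had r from -0.12 to 0.16 over 56 pairs (4 over 0.1) and from -0.11 to 0.50 over 18 pairs (3 over 0.1), so the number was not treated as a pairing. Gene positions came from GENCODE 44 and promoters from RefSeq. Tables were handled with Python 3.11.15 and pandas 2.3.3. A p-value sets a change against the spread between libraries of the same group, with 2 or 3 libraries a group. That spread was pooled over all groups of the series, so a noisy group borrows from the others.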

Additional observations from a re-analysis of the deposited data

Results flagged for a closer look

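Each of the following effects differed between shHOXB13 and shCtrl cells by an interaction term in limma with a Benjamini-Hochberg adjusted p under 0.05 over all genes, and values are the differences of log2 changes, shHOXB13 minus shCtrl. The difference in the response to shp300 was positive for ISG15 (1.78), IFI44L (2.90), IFI44 (2.52), IFIT3 (3.80), IFITM1 (5.10), IFITM3 (1.70), OAS1 (2.27), OAS3 (3.11), OAS2 (3.64), OASL (2.76), IFI27 (2.87), XAF1 (3.31), LGALS3BP (1.76), BST2 (3.98), CMPK2 (3.34), PARP14 (1.81), HERC6 (1.75) and HERC5 (3.01). Of these, OAS2 was called without each of the 8 libraries in turn, and the others were not. All of them were called higher with shp300 in shHOXB13 cells. In shCtrl cells LGALS3BP was called lower with shp300 and the others were not called, although the means of some, such as OAS3 and CMPK2, fell. For HERC5 and HERC6 the level in shHOXB13 cells was below that in shCtrl cells before shp300 was added. For IFI44L, IFITM1, OAS2 and XAF1 the shCtrl libraries held from 0 to 5 reads, so the size of the difference is poorly known.

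The response to shp300/CBP was larger in shHOXB13 cells for GBP1 (2.26) and smaller for IFI6 (-2.41), IFIT1 (-2.44), RSAD2 (-2.22) and CXCL10 (-2.77). In GBP1 the 2 shHOXB13+shp300/CBP libraries lay more than 3-fold apart. The difference in the step from shp300 to shp300/CBP was negative for ISG15 (-2.01), IFI6 (-3.79), IFI44 (-3.42), IFIT2 (-3.40), IFIT3 (-4.76), IFIT1 (-4.61), IFITM1 (-5.10), IFITM3 (-1.22), OAS1 (-2.68), OAS2 (-3.68), OASL (-3.86), IFI27 (-2.90), LGALS3BP (-1.68), BST2 (-3.22), CMPK2 (-2.47), RSAD2 (-4.95), CXCL10 (-5.23) and CXCL11 (-5.09), a comparison added after the values had been seen. For each of these genes the group mean rose with this step in shCtrl cells and fell in shHOXB13 cells. Only OAS2 and IFITM3 among them were called lower in the latter. The comparison shares its libraries with the response to shp300 above, so these are not separate evidence.

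The difference in the response to CCS1477 was negative for IFIT2 (-1.31) and OASL (-1.12). Both genes were lower with CCS1477 in shHOXB13 cells and were not called in shCtrl cells. The difference was positive for CMPK2 (0.77) and MX1 (0.75), and this pair lost the call with median-of-ratios size factors. No member was singled out for 1 library far from its group, since groups of 2 or 3 are too small for that rule.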

How the results depend on the processing

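All counts here are of the 47 genes (45 with the inhibitor) called by limma with Benjamini-Hochberg adjustment. Among the 41 genes described by name, no called change turned its direction under any alternative run. The other genes were not checked for this. Counts within 1.5 times the reported one are not listed, and the cause of the shifts that follow was not tested. With shp300 in shCtrl cells (1 call) median-of-ratios size factors and TPM each gave 4 calls, and voom and a fit of only the groups compared each gave 3. With shCBP in shHOXB13 cells (0) size factors, TPM and voom each gave 1, LGALS3BP. The interaction with shp300 (18) went to 29 with a pseudocount of 1, that with shCBP (0) to 2 with voom (HERC6 and DTX3L), and that with shp300/CBP (5) to 3 without the filter and to 10 with voom. For shp300/CBP against shp300 in shHOXB13 cells (4), a pseudocount of 1 gave 14, TPM 2, voom 16 and only the groups compared 0, and its interaction (18) gave 3 with only the groups compared. CCS1477 in shCtrl cells (13) gave 7 with a fold change of at least 1.5. With the replicate block the interaction with CCS1477 (4) gave 2, and no other count moved by over 1.5 times; most same-numbered libraries did not deviate together. Without single libraries, each in turn, there were 16 to 22 calls for shHOXB13 alone (25), 0 to 2 for shp300 and 2 to 5 for shCBP in shCtrl cells, 17 to 25 for shp300/CBP in shCtrl (29), 26 to 34 for shp300 (40) and 27 to 36 for shp300/CBP (37) in shHOXB13 cells, and 0 to 0 for shCBP there. It gave 5 to 8 for shp300 against shCBP in shCtrl (9) and 20 to 32 in shHOXB13 cells (35). For the interactions it gave 3 to 13 with shp300, 0 to 0 with shCBP and 1 to 6 with shp300/CBP. For shp300/CBP against shp300 it gave 12 to 20 in shCtrl (27), 0 to 4 in shHOXB13 cells, and 12 to 24 for the interaction. With the inhibitor it gave 25 to 28 for shHOXB13 under DMSO (28), 21 to 25 under CCS1477 (25), 11 to 14 for CCS1477 in shCtrl (13), 16 to 22 in shHOXB13 cells (22) and 2 to 5 for the interaction. Dropping 1 of 2 libraries leaves that group with a single one, assumed to vary like the others. With voom, shp300 in shHOXB13 cells gave 42 calls and shp300/CBP in shCtrl cells 36. Levels under about 1 FPKM rest on few reads, which limits the differences that can be detected there.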
